A study of Mus musculus with 14 samples.

Results

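Hormone secretion from pancreatic islets runs through a machinery of proteins that move, dock, prime and fuse dense-core granules, and 37 mouse genes of that machinery are described here. They comprise SNARE proteins, Sec1/Munc18 proteins, calcium sensors, Rab GTPases and effectors, priming and clamping factors, and proteins of the granule membrane and matrix, and each was read from the probe set of the array whose annotation gives that gene symbol alone. All 37 were measured, of 18820 genes in all, and for the 2 with several probe sets (Syt4 and Unc13a) the brightest over the arrays was used. The rule uses gene symbols and no measured difference.

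Islets came from 14 mice, with 1 whole-transcript array per mouse by the wording of the labels. Wild-type C57BL/6 mice (WT) and mice of the same background lacking Toll-like receptors 2 and 4 (DKO), which sense bacterial lipopeptides and lipopolysaccharide for the innate immune system, were housed free of specific pathogens. Every mouse, WT controls included, ate a diet with 60% fat from 6 weeks of age, so no group on ordinary feed enters the comparisons. Islets were taken after 5 weeks of this diet from 4 WT and 2 DKO mice, and after 7 months from 4 mice of each genotype. Mice of the later groups were also older, so time on the diet and age cannot be told apart. Values are log2 signals, in which a difference of 1 stands for a 2-fold change, and differences carry the standard error of the fit.

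A granule becomes able to fuse when Rab GTPases on its surface and their effectors bring it to the plasma membrane, where Munc13 and Munc18 proteins help syntaxin, SNAP-25 and VAMP assemble into the SNARE complex. Calcium entering through voltage-gated channels binds synaptotagmins and related sensors, which trigger fusion, while complexins hold partly assembled complexes. Granins such as chromogranins and secretogranins fill the granule core beside insulin, glucagon and somatostatin, and occur widely in endocrine cells.

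The arrays were checked before the members were compared. Tlr2 was lower in DKO islets by 1.66 ± 0.12 (log2 difference -1.66, limma adjusted p = 9.71e-06) at 5 weeks and by 1.06 ± 0.10 (log2 difference -1.06, adjusted p = 1.61e-05) at 7 months. Tlr4, whose mean signal of 2.86 to 3.30 lay below the array medians of 3.89 to 3.98 in all 4 groups, did not pass in either comparison, and where its probes lie relative to the deletion was not checked. Its log2 difference was positive, 0.35 ± 0.20 at 5 weeks and 0.31 ± 0.16 at 7 months, so no loss of Tlr4 signal was seen. At 5 weeks every DKO array lay above every WT array for Tlr4. Islet hormone genes were bright, with group means of 11.88 to 11.91 for Ins2 and 11.74 to 12.88 for Sst. Of the marker lists read beside the members, 0 of 11 beta cell markers passed in limma at 7 months, with 3 at an unadjusted p under 0.05. In DKO against WT islets at 7 months, 3 of 4 alpha cell markers, 2 of 5 delta cell markers and 3 of 3 PP and epsilon cell markers were lower, and 10 of 15 stellate cell, pericyte and fibroblast markers were higher. In bulk RNA, fewer cells of a type and less RNA per cell cannot be told apart.

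After 7 months on the diet, Mlph was the member that differed most between the genotypes. Mlph encodes melanophilin, which links Rab27a on granules to the actin motor myosin Va. Its signal (probe set 10348471) in the 4 WT arrays at 7 months was 5.74, 5.95, 5.75 and 5.47, and in the 4 DKO arrays 3.87, 4.06, 2.92 and 3.85. Every DKO array lay below every WT array, and the groups are separated by more than the whole range of either. Mlph fell by 2.05 ± 0.22 on the log2 scale, a 4.15-fold difference with a 95% confidence interval of -2.52 to -1.59 for the log2 value (limma adjusted p = 6.55e-05). The DKO mean of 3.67 was under the median signal of all arrays, where array signals compress, so the size of the fall is not exact. The call held under all 11 other ways of processing and with each of the 14 arrays left out in turn, with values from -2.20 to -1.80.

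The first listed promoter of Mlph, chr1:90914850-90915099 on the plus strand of GRCm38.p6 in RefSeq's table, is shown because this gene carries the largest difference. The 250 bases end just before the start site of the first listed transcript, and the gene's listed span begins at 90915024, inside them. The capitals mark CACGTG, an E-box that reads the same on both strands and starts 48 bases before that start site.
Mlph: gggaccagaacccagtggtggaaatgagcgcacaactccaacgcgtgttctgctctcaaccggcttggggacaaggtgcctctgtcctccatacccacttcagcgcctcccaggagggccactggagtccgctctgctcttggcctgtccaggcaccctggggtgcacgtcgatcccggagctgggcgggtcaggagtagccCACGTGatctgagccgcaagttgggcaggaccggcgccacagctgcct
The same letters occur in 6.05% of 27025 promoters of this length and in 4 of the 27 members with a promoter in the table (Cadps2, Mlph, Stxbp2 and Unc13b). The motif was picked after values and sequences were seen, and a match describes letters only.

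Rims2, which encodes Rim2, a Rab3 effector at docking sites, also fell at 7 months. Its signal (probe set 10423855) was 7.45, 7.44, 7.40 and 7.38 in WT and 7.06, 7.14, 7.17 and 6.89 in DKO islets. The groups did not overlap, and the WT arrays lay within a narrow band. Rims2 was lower by 0.35 ± 0.08 (log2 difference -0.35, 1.28-fold, limma adjusted p = 0.0201). This call was kept in 9 of 11 other settings, lost with the acinar covariate and with only the arrays compared, and lost without WT replicate 1, WT replicate 2 or DKO replicate 4 of the 7-month groups, and its adjusted p ranged from 0.00772 to 0.0701 over all alternatives. At 5 weeks the Rims2 signal was 7.14, 7.31, 7.22 and 7.30 in WT and 7.30 and 7.20 in DKO islets, with a log2 difference of 0.00 ± 0.10 (adjusted p = 0.993).

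Mlph and Rims2 were the 2 of 37 members, 5.41%, that passed in the comparison of genotypes at 7 months, against 4.71% of all genes tested, so the share of members is near that of the array. Both were lower, where 2.27% of all genes were lower and 2.44% higher. With dim genes left out (every group mean under the median of all genes), 1161 of 9854 genes passed, a larger share than the 5.41% of members. At an unadjusted p under 0.05 there were 13 members. The median log2 difference was -0.06 over the members and 0.01 over all genes. In 2 members (Vamp8 and Chgb) every DKO array lay above every WT array and in 4 (Rims2, Mlph, Exoc6 and Ptprn2) below, against 5.35% and 5.25% of all genes and 10.6% in either direction.

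**Figure D1:**
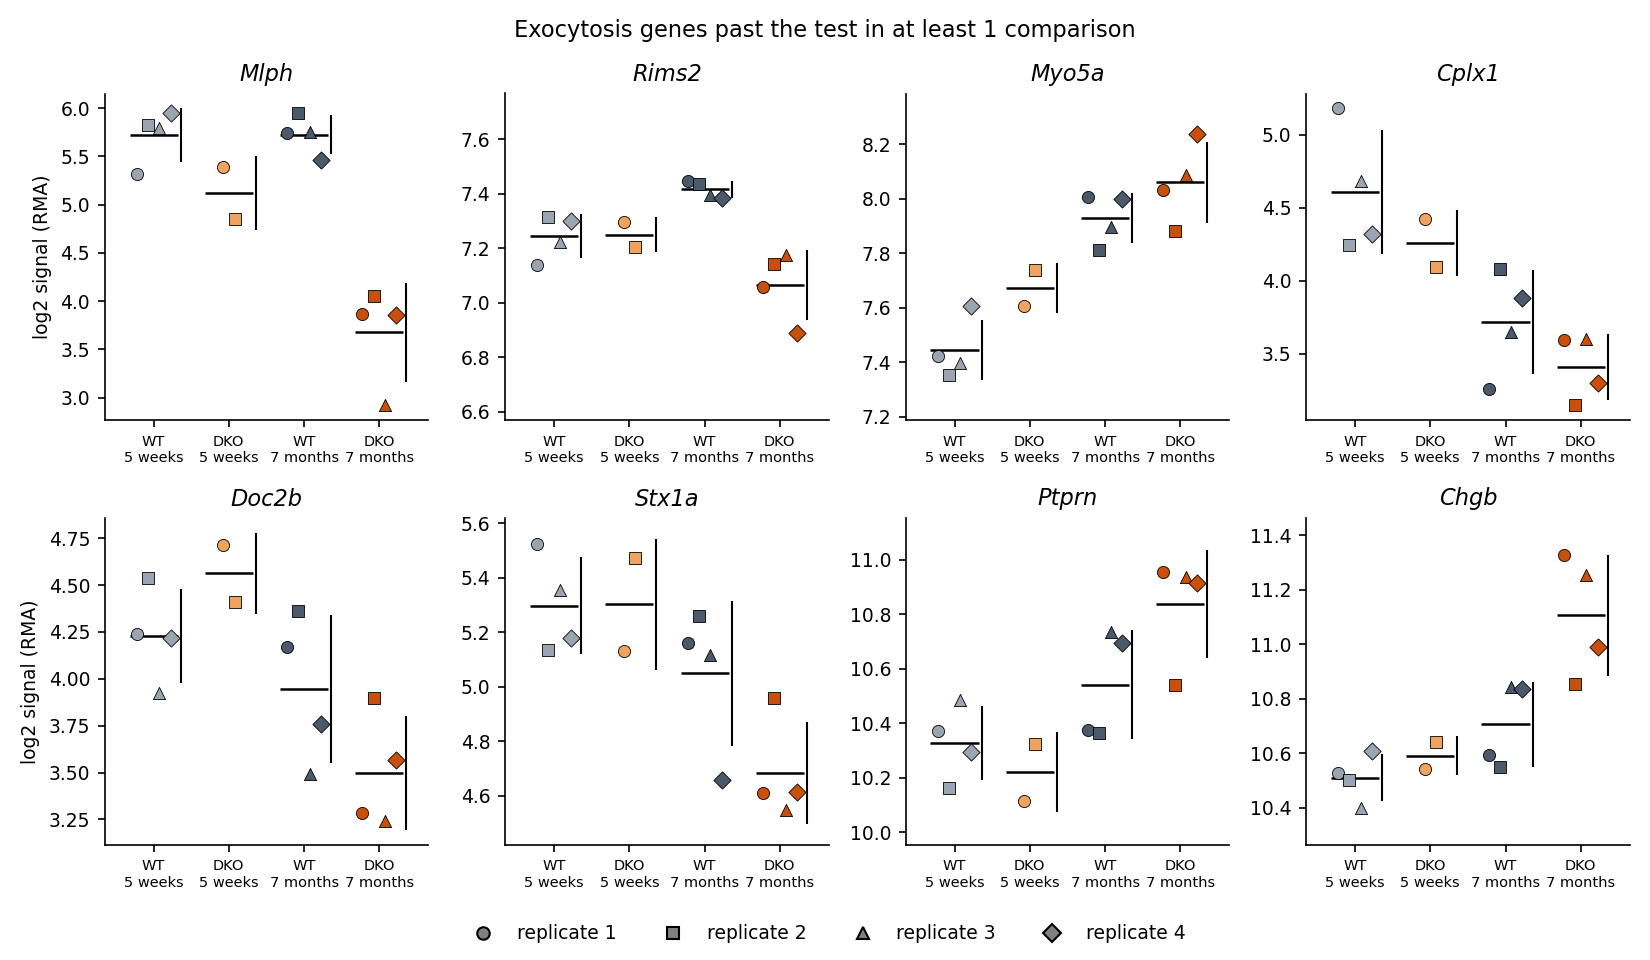
Log2 signal of the 8 members that passed the test in at least 1 comparison, in each of the 14 arrays. Symbols give the replicate number, horizontal lines the group mean and vertical lines 1 SD to each side. The axes differ between genes and do not start at 0. Mlph in the 4 DKO arrays at 7 months lies between 2.92 and 4.06, below the other 10 arrays.

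Both genes belong to the Rab GTPases and effectors, 9 members of which 7 had a negative difference at 7 months and 2 passed. The mean of the 9 genes, each centred over the arrays, was 0.09 to 0.20 in the WT arrays at 7 months and -0.17, -0.02, -0.37 and -0.39 in the DKO arrays. DKO replicate 2 was the array closest to WT. Rab37, a granule GTPase, showed the same array apart: its signal was 8.61, 8.64, 8.52 and 8.39 in WT and 8.38, 8.86, 7.73 and 7.07 in DKO islets. DKO replicate 2 was above all WT arrays and the other DKO arrays were below them. The SD of Rab37 in that group, 0.78, was the highest of any member, and its log2 difference of -0.53 ± 0.26 did not pass (adjusted p = 0.295).

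Sytl4, which encodes granuphilin, a Rab27a effector that docks granules to syntaxin, had the same order of the 4 DKO arrays as Rab37. Its signal was 9.15, 9.16, 9.01 and 9.02 in WT and 8.79, 9.29, 8.62 and 8.50 in DKO islets at 7 months, with a log2 difference of -0.29 ± 0.13 (adjusted p = 0.259). Rph3al, which encodes Noc2, a Rab3 and Rab27 effector, was 8.66, 8.78, 8.86 and 8.62 in WT and 8.65, 8.76, 8.18 and 8.08 in DKO islets, with a log2 difference of -0.31 ± 0.13 (adjusted p = 0.223). In these genes DKO replicate 2 was the highest of the 4 DKO arrays. The Rab GTPases that the effectors bind, Rab3a and Rab27a, had log2 differences of 0.10 and -0.03 and did not pass, nor did Myo5a, with 0.13. Exoc6, a subunit of the exocyst, which tethers vesicles, was lower in every DKO array than in any WT array, with a log2 difference of -0.21 ± 0.10 that did not pass (adjusted p = 0.285).

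DKO replicate 2 at 7 months was the highest or lowest of its 4 arrays for 28 of 37 members, 75.7%, against 55.8% of all genes, and WT replicate 2 for 26 of 37, 70.3%, against 50% of all genes. Its mean beta cell marker level, centred over the arrays, was 0.08, against -0.13, -0.14 and -0.16 in the other DKO arrays and 0.03 to 0.09 in WT arrays of that time. Without that array 7 members passed at 7 months in place of 2, while over all 18820 genes 1681 passed in place of 887. Mlph (-2.18), Rims2 (-0.38), Rab37 (-0.82, adjusted p = 0.0269), Rph3al (-0.43, adjusted p = 0.0461) and Sytl4 (-0.45, adjusted p = 0.00551) were lower, and Ptprn (0.39, adjusted p = 0.0461) and Chgb (0.48, adjusted p = 0.0122) were higher. The array was singled out after its values were seen, and the full set of arrays remains the basis of the counts given.

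**Figure D2:**
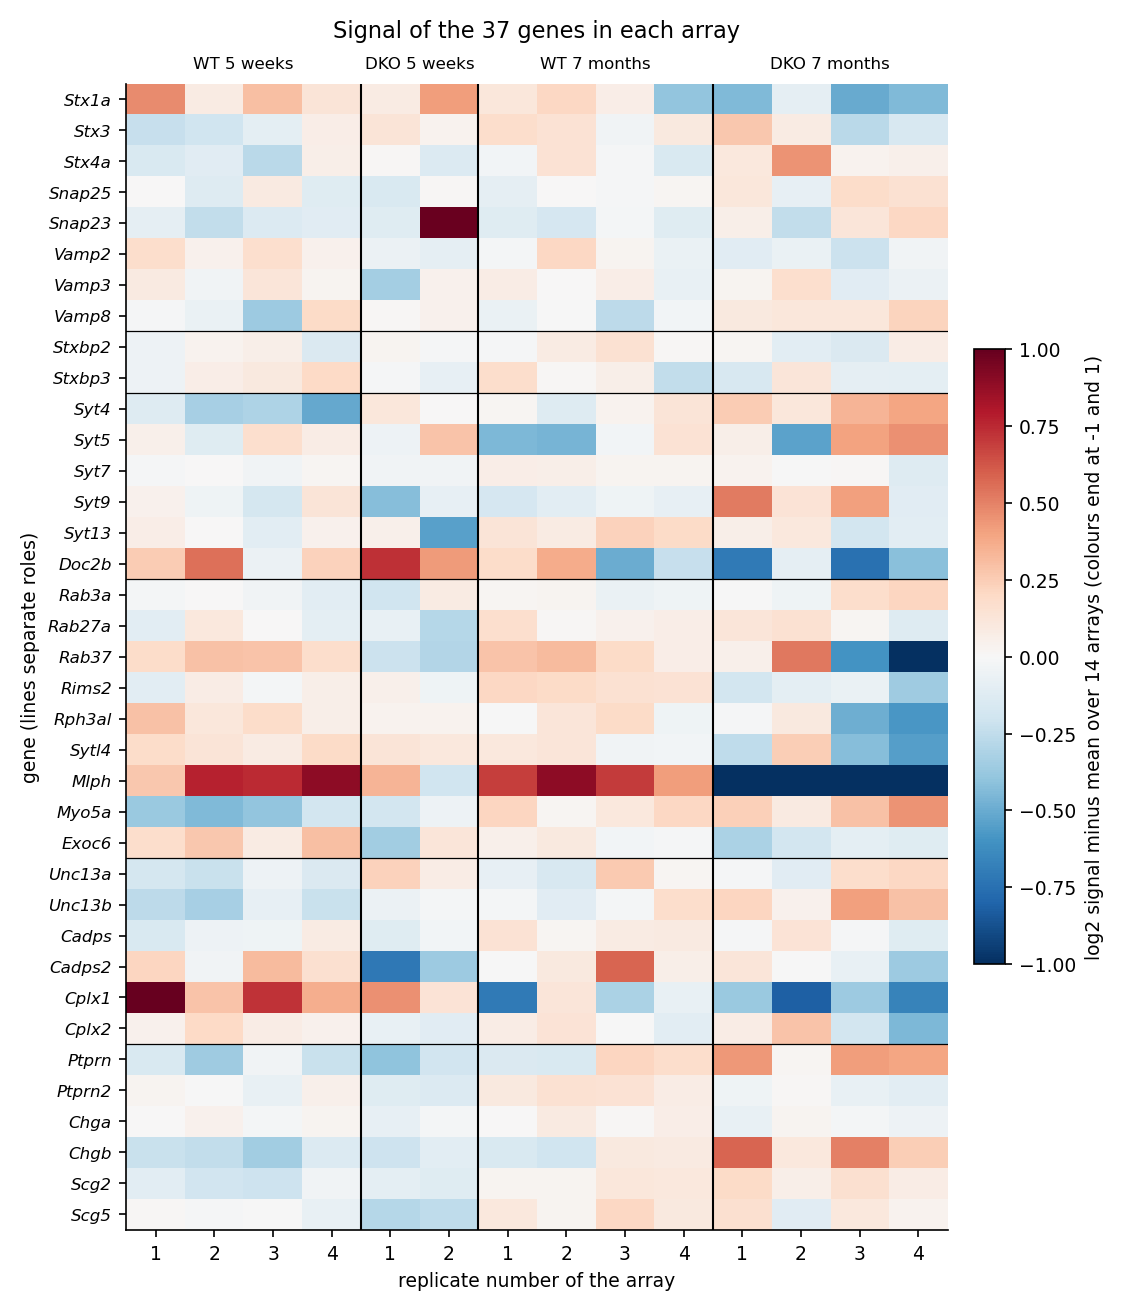
Log2 signal of each of the 37 members minus its mean over the 14 arrays, with arrays in columns by group and replicate number and genes in the order of their roles. Red is higher and blue lower, and colours end at -1 and 1. Rab37, Rph3al and Sytl4 are low in DKO replicates 3 and 4 at 7 months and not in replicate 2.

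Markers of several other cell types also differed between the genotypes at 7 months. The mean centred level of the 4 alpha cell markers was -0.12 to 0.02 in WT and -0.74 to -0.56 in DKO arrays at 7 months. That of the 5 delta cell markers was -0.05 to 0.09 in WT and -0.61 to -0.48 in DKO arrays, and that of the 15 stellate cell, pericyte and fibroblast markers -0.45 to -0.21 in WT and 0.24 to 0.92 in DKO arrays. All 3 PP and epsilon cell markers fell, with a mean level of -0.31 to 0.55 in WT and -1.38 to -0.68 in DKO arrays. Of 12 endothelial markers 3 rose and 1 fell, with levels of -0.01 to 0.10 in WT and 0.18 to 0.41 in DKO arrays. Of 11 macrophage markers 4 rose, with levels of -0.17 to -0.05 in WT and 0.02 to 0.56 in DKO arrays. Of 11 T, B and NK cell markers 0 passed in limma (1 at an unadjusted p under 0.05), and DKO replicate 4 stood at 1.48. Acinar markers, for which 1 of 20 passed, ranged from -2.35 to 0.72 in WT and from -0.01 to 0.54 in DKO arrays. All 20 had a positive difference at 7 months, with a median of 1.06. At 5 weeks 19 of 20 did, with a median of 1.07, and 0 passed in limma (3 at an unadjusted p under 0.05). The acinar level at 5 weeks was -1.56 to 0.60 in WT arrays and 0.85 and 1.27 in DKO arrays. Beyond a fit with the acinar level as a covariate, the part of these cell types in the member differences was not tested. At 7 months Mlph passed in that fit and Rims2 did not.

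Of the 8 SNARE genes, 0 passed between the genotypes at 7 months in limma and 2 had an unadjusted p under 0.05, Stx1a and Vamp8. Stx1a, the plasma membrane syntaxin that Munc18 and SNAP-25 bind, had a log2 difference of -0.37 ± 0.14 (adjusted p = 0.171). Snap25, the plasma membrane SNARE of neurons and endocrine cells, had a log2 difference of 0.11, Vamp2, the granule SNARE, of -0.15, and Vamp3, of -0.02. Vamp8, a vesicle SNARE of exocrine and other cells, was 6.61, 6.67, 6.41 and 6.64 in WT and 6.77, 6.79, 6.79 and 6.89 in DKO islets. Its groups did not overlap, and its log2 difference of 0.23 ± 0.10 did not pass (adjusted p = 0.261). Stx3, Stx4a and Snap23, which also encode SNARE proteins, had values of -0.11, 0.18 and 0.14. Stxbp2 and Stxbp3, the Munc18 proteins that bind syntaxins, had values of -0.10 and -0.06, with 0 of 2 past the threshold at either unadjusted or adjusted p.

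Among the calcium sensors, 0 of 6 passed at 7 months in limma and 3 had an unadjusted p under 0.05. Doc2b, a high-affinity calcium sensor of secretion, had a log2 difference of -0.45 ± 0.19 (adjusted p = 0.227). Syt4, an atypical synaptotagmin, and Syt9 had differences of 0.26 ± 0.10 (adjusted p = 0.141) and 0.34 ± 0.13 (adjusted p = 0.161). Syt7, a calcium sensor of insulin granule fusion, had a difference of -0.06, and its signal lay within 8.05 to 8.24 over all 14 arrays. Syt5 and Syt13 had differences of 0.29 and -0.19.

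Priming factors showed the same absence of a call. Of 6 genes 0 passed in limma at 7 months and 1, Unc13b, had an unadjusted p under 0.05. Unc13a and Unc13b, which encode the Munc13 priming proteins, had log2 differences of 0.05 and 0.24. Cadps and Cadps2, the CAPS proteins of dense-core granule priming, had differences of -0.09 and -0.26, and the complexins Cplx1 and Cplx2 of -0.31 and -0.09.

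Proteins of the granule itself divided at 7 months, with 3 of 6 genes positive and 3 negative, and 0 passed in limma (3 at an unadjusted p under 0.05). Chgb, chromogranin B, was 10.59, 10.55, 10.84 and 10.84 in WT and 11.33, 10.85, 11.25 and 10.99 in DKO islets. Every DKO array lay above every WT array, DKO replicate 2 by the smallest margin. Its log2 difference of 0.40 ± 0.11 missed the threshold (adjusted p = 0.0531), and passed with a trended robust prior (0.0176), dim genes left out (0.0278), array weights (0.0203) or without DKO replicate 2 (0.0122). Ptprn2, which encodes the granule membrane protein phogrin, was 10.23, 10.28, 10.27 and 10.20 in WT and 10.09, 10.14, 10.05 and 10.02 in DKO islets, with a difference of -0.17 ± 0.07 (adjusted p = 0.175). Ptprn had a value of 0.29, and Chga, Scg2 and Scg5 of -0.07, 0.05 and -0.06.

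At 5 weeks of diet 0 of 37 members passed in limma between DKO and WT islets, where 0.994% of all genes passed (0.499% higher and 0.494% lower), and 7 members had an unadjusted p under 0.05. Differences ranged from -0.70 to 0.58, with a median of -0.03 over the members and 0.01 over all genes. In 4 members every DKO array lay above every WT array and in 8 below, against 11.2% and 10.3% of all genes and 21.6% in either direction, shares that the small DKO group of 2 arrays makes large for any gene. Mlph was 5.32, 5.82, 5.80 and 5.95 in WT and 5.39 and 4.85 in DKO islets. The groups overlapped, and the log2 difference of -0.60 ± 0.27 did not pass (adjusted p = 0.381).

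Cadps2 came nearest to the threshold at 5 weeks. Its signal was 5.68, 5.42, 5.78 and 5.62 in WT and 4.74 and 5.10 in DKO islets. Both DKO arrays lay below all WT arrays, with a log2 difference of -0.70 ± 0.17 (adjusted p = 0.0711). It passed in 4 alternatives: a trended robust prior, dim genes left out, and the fits without WT replicate 3 or DKO replicate 4 of the 7-month groups. Syt4 was 9.12, 8.91, 8.94 and 8.74 in WT and 9.36 and 9.25 in DKO islets, and its difference of 0.38 ± 0.12 did not pass (adjusted p = 0.168).

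Snap23, a SNARE found in most tissues, was 9.09, 8.93, 9.04 and 9.06 in WT and 9.05 and 10.16 in DKO islets at 5 weeks. A lone DKO array, replicate 2, stood above all other arrays of the series, of which the next was 9.38. The log2 difference of 0.58 ± 0.21 did not pass with both arrays (adjusted p = 0.266). With DKO replicate 1 left out it was 1.13 (adjusted p = 0.00569), a value that rests on replicate 2 alone and assumes that it varies like the other groups.

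**Figure D3:**
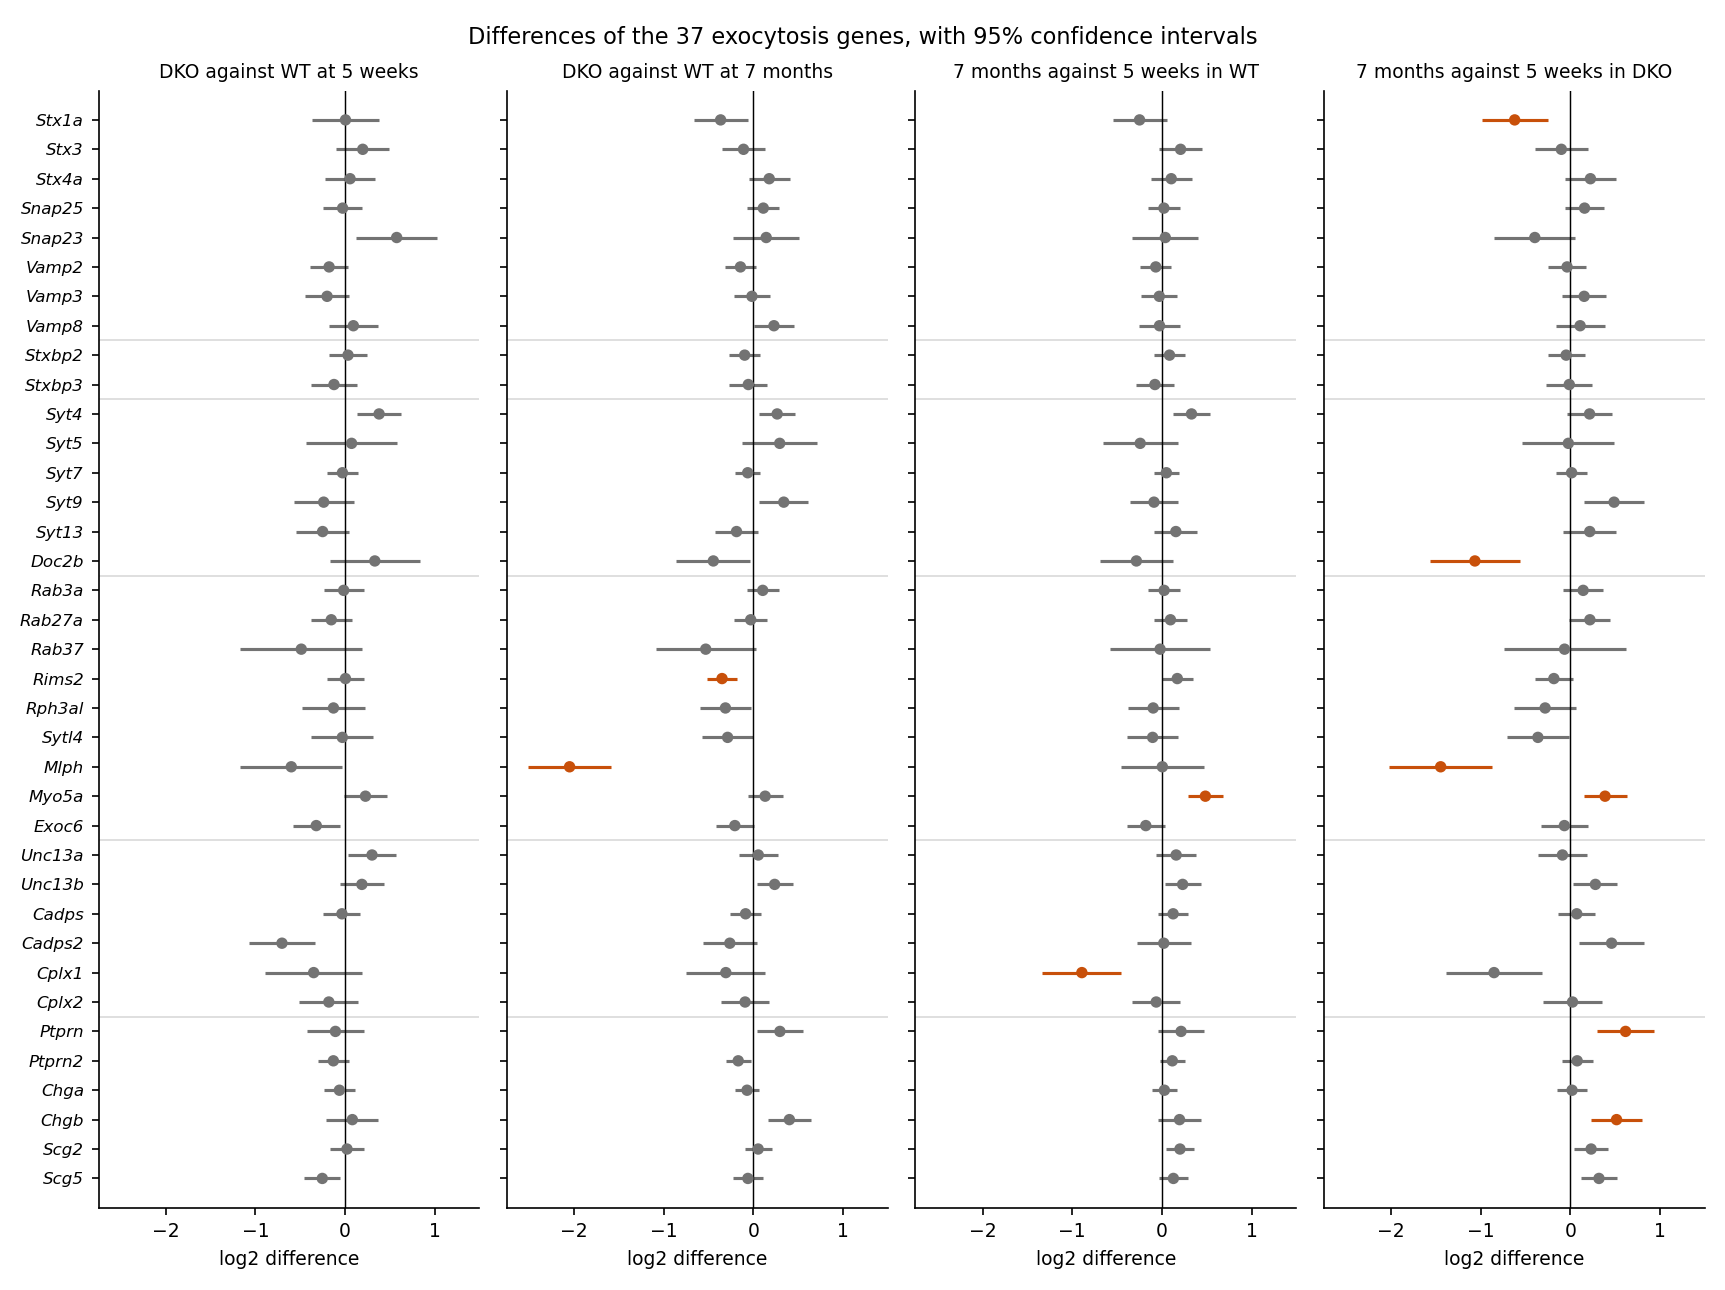
Log2 difference of each of the 37 members in 4 comparisons, with 95% confidence intervals of the fit; orange marks members with a limma adjusted p under 0.05. Grey lines separate the roles. Intervals are wider in the panels that use the 2 DKO arrays at 5 weeks.

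The interaction of genotype and time, which asks whether the genotype difference at 7 months departs from that at 5 weeks, passed for 0 of 37 members in limma, against 0.0903% of all genes (0.0266% higher and 0.0638% lower), and 4 members had an unadjusted p under 0.05. For Mlph it was -1.45 ± 0.35 (adjusted p = 0.145), for Doc2b -0.78 ± 0.30 (adjusted p = 0.380), for Syt9 0.58 ± 0.20 (adjusted p = 0.320) and for Rims2 -0.36 ± 0.13 (adjusted p = 0.325). The difference of Mlph at 7 months is thus not shown to depart from that at 5 weeks with all arrays. Without DKO replicate 2 at 7 months the Mlph interaction was -1.58 and passed (adjusted p = 0.0474). Over all genes 185 passed in that fit, in place of 17.

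In WT islets, Myo5a was higher and Cplx1 lower after 7 months than after 5 weeks. Myo5a, which encodes myosin Va, the actin motor that carries secretory granules and binds melanophilin, had a signal (probe set 10587107) of 7.42, 7.35, 7.40 and 7.61 at 5 weeks and 8.01, 7.81, 7.90 and 8.0 at 7 months. The times did not overlap. Myo5a rose by 0.49 ± 0.09 on the log2 scale, 1.40-fold (limma adjusted p = 0.0110), a call that held under all 11 other ways of processing and without each of the 14 arrays. In DKO islets Myo5a was 7.61 and 7.74 at 5 weeks and 8.03, 7.88, 8.09 and 8.24 at 7 months, and rose by 0.39 ± 0.11 (adjusted p = 0.0486), a call kept in 3 of 11 other settings. Of the 14 fits that each leave out 1 array it passed in 2, those without WT replicate 4 at 5 weeks and without DKO replicate 2 at 7 months. The interaction for Myo5a was -0.10 ± 0.14 (adjusted p = 0.879), with an interval of -0.41 to 0.21.

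Cplx1 encodes complexin 1, a SNARE clamp. Its signal (probe set 10532180) was 5.18, 4.24, 4.68 and 4.32 in WT at 5 weeks and 3.25, 4.08, 3.65 and 3.88 at 7 months. The groups did not overlap, and the mean at 7 months, 3.72, lay below the array medians of 3.89 to 3.98. Cplx1 fell by 0.89 ± 0.21 on the log2 scale, 1.86-fold (limma adjusted p = 0.0345). The call was kept in 6 of the 10 other settings that tested Cplx1, which was removed where dim genes were left out. It was lost without WT replicate 1 or 3 at 5 weeks and without WT replicate 1, 3 or 4 at 7 months. In DKO islets Cplx1 was 4.42 and 4.10 at 5 weeks and 3.59, 3.14, 3.60 and 3.29 at 7 months, with a log2 difference of -0.85 ± 0.25 that missed the threshold (adjusted p = 0.0548). Its paralog Cplx2 had differences of -0.06 in WT and 0.02 in DKO islets.

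These were 1 higher and 1 lower of 37 members in WT, 5.41% in all, where 2.37% of all genes passed, 1.35% higher and 1.01% lower. With dim genes left out, 520 of 9854 genes passed, a share near that of the members. At an unadjusted p under 0.05 there were 6 members, and the median log2 difference was 0.03 over the members and 0.03 over all genes. Groups did not overlap in 8 members higher at 7 months and in 1 lower, against 7.9% and 3.66% of all genes and 11.6% in either direction. Of the calcium sensors Syt4 was 9.26, 9.12, 9.28 and 9.37 at 7 months, above the 5-week arrays given above, with a difference of 0.33 ± 0.10 that did not pass (adjusted p = 0.0951).

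In DKO islets 6 of 37 members passed between 5 weeks and 7 months, 3 higher and 3 lower, 16.2% in all against 7.57% of all genes, of which 4.86% were higher and 2.7% lower. With dim genes left out, 1703 of 9854 genes passed, a share near the 16.2% of members. Most members were brighter than the median gene, and their share was not set against genes matched for signal. Groups did not overlap in 10 members higher at 7 months and in 5 lower, against 15.7% and 11.1% of all genes and 26.7% in either direction. At an unadjusted p under 0.05 there were 13 members. The comparison shares its 7-month arrays with that of the genotypes, and its 2 arrays at 5 weeks limit it. Without DKO replicate 1 at 5 weeks 1 member passed, Snap23, and none of the 6. The count was 3 without DKO replicate 2 at 5 weeks, 3 without DKO replicate 1 at 7 months and 2 without DKO replicate 3 at 7 months. Scaled another way, with arrays centred on their median, 1 was higher and 4 lower, and with quantile normalization repeated 1 was higher and 3 lower. Over all genes the calls were 915 higher and 509 lower as deposited, 614 and 741 with arrays centred, and 687 and 661 with quantile normalization repeated. All-gene calls also fell without DKO replicate 1 or 3 at 7 months, from 1424 to 1058 and 938. The median log2 difference was 0.02 over the members and 0.02 over all genes. Over the 5 comparisons 8 members passed at least once and 29 never did.

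Mlph, Doc2b and Stx1a fell. Mlph was 5.39 and 4.85 at 5 weeks against the 7-month values above, all of them lower, and fell by 1.45 ± 0.27 on the log2 scale (adjusted p = 0.00434), where the WT difference was 0.01 ± 0.22. Doc2b (probe set 10388465) was 4.72 and 4.41 at 5 weeks and 3.28, 3.90, 3.24 and 3.57 at 7 months. It fell by 1.06 ± 0.24 (adjusted p = 0.0134), to a level below the array medians, and did so under all 10 other settings that tested it. Its WT difference was -0.28 ± 0.19, and the interaction did not pass. Stx1a (probe set 10526261) was 5.13 and 5.47 at 5 weeks and 4.61, 4.96, 4.55 and 4.61 at 7 months, and fell by 0.62 ± 0.17 (adjusted p = 0.0412). The groups of Stx1a did not overlap, and the call was kept in 5 of 11 other settings. Of the 14 fits that each leave out 1 array it passed in 5, those without WT replicate 1 or 2 at 5 weeks, WT replicate 2 or 4 at 7 months, or DKO replicate 2 at 7 months.

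Ptprn and Chgb were the granule proteins that rose in DKO islets. Ptprn encodes IA-2, a granule membrane protein named as a diabetes autoantigen, and Chgb encodes a matrix granin. Ptprn (probe set 10355813) was 10.12 and 10.33 at 5 weeks and 10.96, 10.54, 10.94 and 10.92 at 7 months, with the times apart. It rose by 0.62 ± 0.15 (adjusted p = 0.0201), a call lost without DKO replicate 1 at 5 weeks or DKO replicate 3 at 7 months. Chgb (probe set 10476355) was 10.54 and 10.64 at 5 weeks and rose by 0.52 ± 0.14 (adjusted p = 0.0315), a call kept in 5 of 11 other settings and lost without DKO replicate 1 or 2 at 5 weeks or DKO replicate 1 or 3 at 7 months. All 6 granule membrane and matrix genes had a positive time difference in both genotypes, from 0.03 to 0.21 in WT and from 0.02 to 0.62 in DKO islets. With arrays centred on their median Chga turned negative in both (-0.03 and -0.05), and with quantile normalization repeated Ptprn2 did in DKO islets (-0.01). Of these 2 passed in DKO, and in WT 0 passed in limma (1 at an unadjusted p under 0.05). The alpha cell marker level was 0.49 to 0.63 in WT and 0.11 to 0.41 in DKO arrays at 5 weeks, above the 7-month values in each genotype, and its part in these differences was not tested.

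The 6 genes had positive time differences in both genotypes on the deposited scale. The first listed promoters of 4 that hold the letters marked below are shown. Each is the 250 bases before the start site of the first listed transcript in RefSeq's table of GRCm38.p6: Chgb at chr2:132781392-132781641 on the plus strand, Scg2 at chr1:79440027-79440276 on the minus strand, Chga at chr12:102554691-102554940 on the plus strand and Ptprn at chr1:75264209-75264458 on the minus strand. The Ptprn bases lie within the gene's listed span (75247035 to 75264497). Capitals mark TGACGTCA, the cAMP response element, or the shorter form TGACG, which reads CGTCA on the other strand and is contained in the longer form.
Chgb: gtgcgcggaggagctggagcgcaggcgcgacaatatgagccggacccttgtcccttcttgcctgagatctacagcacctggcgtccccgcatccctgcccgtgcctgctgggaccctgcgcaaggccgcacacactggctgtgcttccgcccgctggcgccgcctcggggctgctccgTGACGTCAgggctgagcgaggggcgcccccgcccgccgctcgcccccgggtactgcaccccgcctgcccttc
Scg2: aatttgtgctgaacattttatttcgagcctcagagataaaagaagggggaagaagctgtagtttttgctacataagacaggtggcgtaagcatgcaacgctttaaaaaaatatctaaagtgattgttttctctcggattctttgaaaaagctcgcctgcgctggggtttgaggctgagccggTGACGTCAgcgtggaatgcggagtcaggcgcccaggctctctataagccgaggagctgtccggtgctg
Chga: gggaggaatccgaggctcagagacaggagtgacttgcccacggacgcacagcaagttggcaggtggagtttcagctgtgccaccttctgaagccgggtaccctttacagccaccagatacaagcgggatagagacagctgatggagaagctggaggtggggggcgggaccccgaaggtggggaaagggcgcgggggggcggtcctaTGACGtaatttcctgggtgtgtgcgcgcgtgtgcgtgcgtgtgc
Ptprn: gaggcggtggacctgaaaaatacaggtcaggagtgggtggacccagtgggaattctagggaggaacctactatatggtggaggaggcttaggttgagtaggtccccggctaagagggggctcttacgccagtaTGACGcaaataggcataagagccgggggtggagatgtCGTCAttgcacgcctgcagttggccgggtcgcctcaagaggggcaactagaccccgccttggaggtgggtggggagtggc
The element starts 72 bases before the start site in Chgb and 68 in Scg2, the shorter letters 44 in Chga and 117 and 80 in Ptprn. On either strand, TGACGTCA is held by 1.62% of all 27025 promoters and by 3 of the 27 members (Chgb, Scg2 and Stxbp3). The shorter form is held by 17.86% and by 11 of 27. Beside the 4 shown these are Scg5, Rab3a, Stx1a, Stx4a, Stxbp2, Stxbp3 and Unc13a, of which Stx1a fell with time in DKO islets. Ptprn2 is not among the 11. The promoters and motifs were picked after values and sequences were seen, and no test was made.

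Genes of the pathway that are not members were read from a list of 136 measured genes. At 7 months 17 of 136 passed between the genotypes, 8 higher and 9 lower, 12.5% against 4.71% of all genes. With dim genes left out 1161 of 9854 genes passed, a share near the 12.5% of the unfiltered list. Syt1, the fast calcium sensor of neurons, fell by 1.13 ± 0.15 on the log2 scale (adjusted p = 0.000529). The active-zone proteins Erc2, Ppfia2 and Pclo, scaffolds of release sites, were lower, with log2 differences of -0.86 ± 0.12, -0.71 ± 0.12 and -0.52 ± 0.10, and Lin7a, a scaffold, was higher (1.17 ± 0.28), so that 4 of 17 other priming, clamping and scaffold factors passed. Vgf, a granin-like peptide precursor, rose by 1.42 ± 0.19 (adjusted p = 0.000623), and 4 of 26 genes of granule cargo and membrane passed, with Nucb2 higher and Sv2b and Atp6ap2 lower.

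In the other lists at 7 months, 4 of 29 Rab3 and Rab27 genes passed, with Sytl1 (0.71), Rab3d (0.59) and Rab3gap2 (0.36) higher and Madd (-0.39) lower. Of 11 voltage-gated calcium channel subunits 2 passed, both lower, Cacna1b (-0.47) and Cacna1c (-0.34). Of 27 SNARE genes 1 passed, Stx16 (0.59), of 18 synaptotagmins 2, Syt1 and Syt3 (0.41), and of 8 exocyst subunits 0 in limma (2 at an unadjusted p under 0.05). Stx16, Syt1, Madd, Pclo, Erc2, Ppfia2, Vgf and Cacna1b passed without each of the 14 arrays and under every other setting that tested them (9 for Ppfia2 and 10 for the others). Cacna1c passed in 1 of the 14 fits that each leave out 1 array and in 6 of 10 other settings. Of those 14 fits, Rab3d and Sv2b passed in 5 each, and Syt3, Lin7a, Nucb2 and Atp6ap2 in 9 each. Sytl1 passed in 11 and Rab3gap2 in 13. The count of 17 became 9 without WT replicate 2, 10 without DKO replicate 1 or 3 and 26 without DKO replicate 2 of the 7-month groups.

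**Figure D4:**
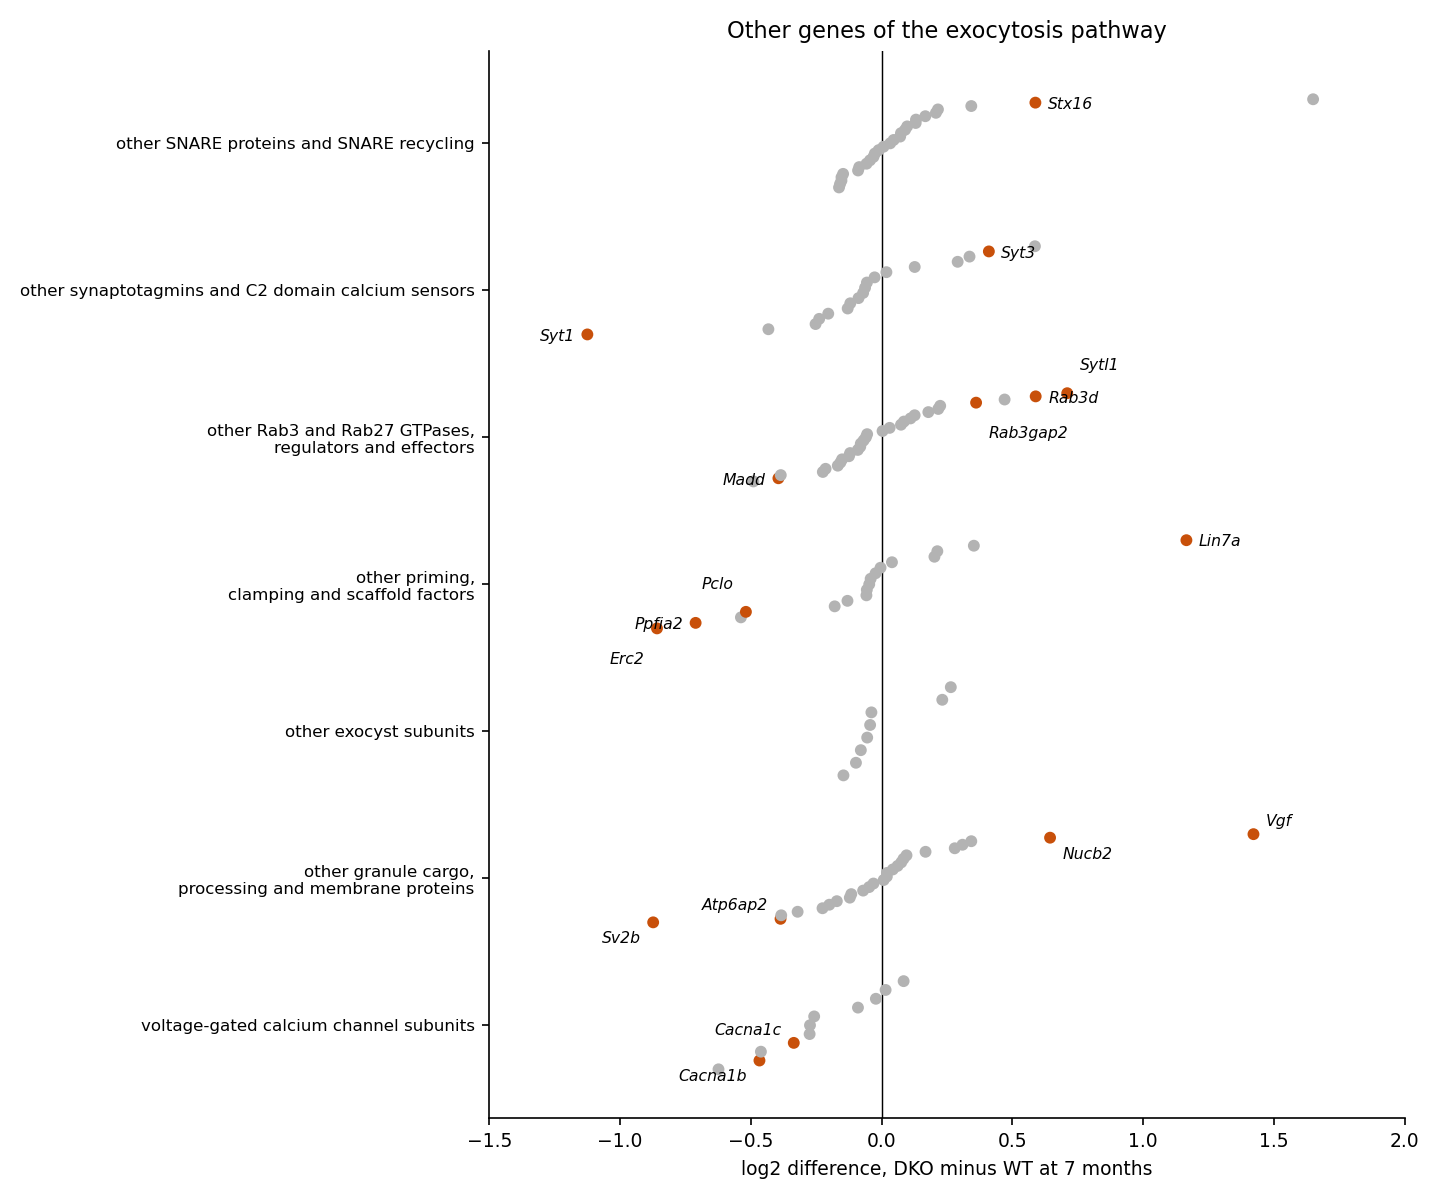
Log2 difference between DKO and WT islets at 7 months for the 136 measured pathway genes that are not members, by list; orange marks those past the limma threshold, with their names. Vgf (1.42) and Lin7a (1.17) are furthest to the right and Syt1 (-1.13) furthest to the left among those that passed. Heights within a list only spread the points.

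At 5 weeks 2 of 136 pathway genes passed, 1.47% against 0.994% of all genes, both higher in DKO islets: Rab3gap2 (0.56) and Myrip (0.69), which encodes a linker between Rab27 and myosin. Without DKO replicate 1 the count was 0 and without DKO replicate 2 it was 1. Between 5 weeks and 7 months 8 passed in WT, 4 in each direction, 5.88% against 2.37% of all genes. With dim genes left out 520 of 9854 genes passed, a share near that 5.88%. Among the 8 pathway genes Cacng4 (-1.14), Rab3c (-0.84) and Syt1 (-0.64) were lower and Myrip (0.51) higher. The count fell to between 2 and 4 without any 1 of the WT arrays other than replicate 2 at 7 months. Over all genes those fits gave 221 to 308. In DKO islets 17.6% passed, against 7.57% of all genes. With dim genes left out 1703 of 9854 genes passed, a share near that 17.6%. The 24 pathway genes that passed were 15 higher and 9 lower. With arrays centred on their median 9 were higher and 9 lower, and with quantile normalization repeated 12 were higher and 9 lower. The 24 were led by Lin7a (2.35), Syt1 (-1.49), Cacng4 (-1.41), Cacna2d2 (-1.34) and Rab3c (-1.34), and without DKO replicate 1 at 5 weeks the count was 6. For the interaction 0 passed in limma, with 24 at an unadjusted p under 0.05, and 1 passed without DKO replicate 2 at 7 months.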

How the data were processed

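Islet RNA was measured on a whole-transcript array in 14 samples. The deposited log2 signals were made by the authors with RMA, as the submitters' processing notes name it (no version). Among 35556 probe sets, the platform annotation gave 1 gene symbol to 21218, several to 1881 and none to 12457, and only the first kind was used. The brightest probe set per gene over all arrays gave 18820 genes, of which 18790 matched RefSeq by Entrez identifier. Values were used as deposited.

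All 14 arrays entered a limma 3.58.1 fit (R 4.3.3) of the 4 group means, with p-values adjusted by Benjamini-Hochberg over all genes of a comparison and judged at 0.05. The p-values set each difference against the spread between these samples within groups, pooled over the 4 groups. Genotypes were compared within each time, times within each genotype, and both differences by their interaction. The method was tested on simulated data. The number of arrays limits the precision. Marker and role levels are means of values centred over the arrays.

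The members, gene lists and tests were chosen with earlier results of these data known. Members past the threshold are given with every array, the others by their values, and pathway genes by counts with up to 4 examples per list; the members near the threshold were chosen after their values were seen. Alternatives were a trended robust prior, dim genes left out, the mean of probe sets, quantile normalization repeated, arrays centred on their median, all probe sets, the replicate number or the number in the description labels as a block, array weights, the acinar level as a covariate, a fit of only the arrays compared, and each array left out. The labels do not say whether replicate numbers pair the mice, and they were not taken to do so. Figures were drawn with Python 3.11.15 and matplotlib 3.10.9.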

Additional observations from a re-analysis of the deposited data

Results flagged for a closer look

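Of 111 member-by-group sets of 4 arrays, 4 held an array far from the others, with a gap of more than 0.829 of the group's range. Chance flags about 1 in 20 groups. In DKO islets at 7 months, replicate 2 was at 4.96 for Stx1a, with the next array at 4.61, at 6.89 for Stx4a, with the next at 6.54, and lowest at 10.54 for Ptprn, with the next at 10.92. Replicate 4 was at 6.89 for Vamp8, with the next at 6.79.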

How the results depend on the processing

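Over the alternatives, 4481 of 4578 member values kept their side of the threshold, 66 no longer passed and 31 newly passed. Of values that passed before or after, 0 changed direction. Changes of direction among values that passed in neither fit were not counted. They did occur, as for Snap23 and Rab3a for time in WT with arrays centred on their median. At 5 weeks the count of members past the threshold was 0, and 1 with a trended robust prior or with dim genes left out. At 7 months it was 2, and 3 with a trended robust prior, dim genes left out or array weights, and 1 with the acinar covariate or only the arrays compared. For time in WT it was 2, and 3 with a trended robust prior, and 1 with dim genes left out (Cplx1 not tested), all probe sets, the acinar covariate or only the arrays compared. For time in DKO it was 6, and 10 with a trended robust prior, 3 with all probe sets or the acinar covariate, and 1 with only the arrays compared. Leaving out each array gave 0 to 1 at 5 weeks, 1 to 7 at 7 months, 1 to 2 for time in WT, 1 to 8 for time in DKO and 0 to 1 for the interaction; the cause was not tested.

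With the replicate number as a block, the count was 1 for time in WT and 2 for time in DKO. Same-numbered samples correlated at -0.163 to 0.158 in their deviations, 1 of 18 pairs over 0.1, and the numbers were not taken to pair the mice. Deviations within groups of 2 or 4 arrays cannot exclude a pairing.

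Over all genes, counts ranged over the other settings from 102 to 291 (187) at 5 weeks, 488 to 1309 (887) at 7 months, 285 to 786 (446) for time in WT, 347 to 1703 (1424) for time in DKO and 0 to 48 (17) for the interaction. With each array left out, all-gene counts were 528 to 1681 at 7 months and 221 to 527 for time in WT. They reached 236 at 5 weeks, 2051 for time in DKO and 185 for the interaction. Signals near the array medians limit the size of differences in Mlph, Doc2b and Cplx1.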
